A study of Rattus norvegicus with 13 samples.

Results

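The thyroid lineage transcription factors described here are Nkx2-1, Pax8, Foxe1, Hhex and Glis3. They were taken as the rows of the gene spots on every array whose gene name is one of these 5 symbols. Each factor had 1 probe printed as 1 spot, so 5 of 45598 probes and 5 of 36174 gene names on the array were kept. RNA of the thyroid of 13 male Wistar rats was measured on one-colour Agilent arrays. The KI-treated group held 6 young of dams that had received potassium iodide by gavage during gestation, and the control group held 7 young of dams given saline. The labels name no genotype, allele or second agent, and all thyroids were taken after weaning, so both the exposure and its end lie before the measurement. The sources used here do not name the litter of an animal, so p-values measure the spread between these 13 animals and not the spread between dams.

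Thyroid follicular cells, which make thyroid hormone from iodide, owe their identity to a small set of DNA-binding proteins that come together in the thyroid bud of the embryo. Nkx2-1, Pax8, Foxe1 and Hhex are all needed for the bud to persist or grow, and each is also found in other organs. In the adult gland Nkx2-1, Pax8 and Foxe1 bind control regions of the thyroglobulin gene. Glis3 acts downstream of the thyrotropin receptor on the genes of iodide uptake.

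The probes are shown because each value below rests on 1 of them. Every probe has 60 bases, of which the leading 30 are given, 5′ to 3′, as the array files hold them.
Nkx2-1: tggcccctcactttttaaaagggcatcatg
Pax8: cccagaccttggcttctaaaatgtctccct
Foxe1: gcgccctcctcgaacaaaaaggaaaagtaa
Hhex: caggcagggaaactgactcacttgtgactg
Glis3: tgtcaaaagtaaaatgaagggattgtgtac
The files place the Nkx2-1 probe at chr6:76917088-76917147 on the minus strand and the Pax8 probe at chr3:2671539-2671598 on the minus strand. The Foxe1 probe lies at chr5:62907922-62907981 and the Hhex probe at chr1:241741934-241741993, both on the plus strand. The Glis3 probe lies at chr1:231878323-231878382 on the minus strand. The header names build rn4 (RGSC 3.4), but the files do not say on which build the position column stands. RefSeq on build GRCr8 draws the Pax8 gene at chr3:27584000-27641094, far from the position given for its probe. That position could not be settled without a genome. Within the transcripts the probes begin at base 2092 for Nkx2-1, 2365 for Pax8, 2709 for Foxe1, 1406 for Hhex and 10901 for Glis3. The transcript named for the Glis3 probe was not in the RefSeq set used here, unlike those of the other factors. Guanine and cytosine made up between 35% and 45% of each probe.

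Windows before the start sites are shown for Hhex and Glis3, the pair of factors whose levels ran most strongly against each other between animals with the scaling over gene spots, and for Nkx2-1. They come from RefSeq on build GRCr8, which held windows for 4 of the 5 factors. Capitals mark the letters GGGCGG or CCGCCC, the core of a GC box, in the 250 bases before the outermost start of Hhex, chr1:244602695-244602944 on the plus strand, and of Glis3, chr1:235809417-235809666 on the minus strand.
Hhex: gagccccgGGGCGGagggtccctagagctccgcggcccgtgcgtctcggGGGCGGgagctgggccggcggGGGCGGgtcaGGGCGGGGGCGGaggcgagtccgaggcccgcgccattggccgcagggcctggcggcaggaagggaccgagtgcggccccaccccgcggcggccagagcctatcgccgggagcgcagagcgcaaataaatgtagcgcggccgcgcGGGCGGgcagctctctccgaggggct
Glis3: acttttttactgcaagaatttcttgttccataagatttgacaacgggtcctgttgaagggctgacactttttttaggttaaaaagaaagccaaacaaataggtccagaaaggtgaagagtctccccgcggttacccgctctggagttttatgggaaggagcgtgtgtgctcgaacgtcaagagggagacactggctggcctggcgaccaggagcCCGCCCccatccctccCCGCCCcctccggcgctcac
The Hhex window held 6 such sites and the outermost of the 4 Glis3 windows held 2, where 30.5% of all 33469 windows held at least 1 on either strand. With 78.4% guanine and cytosine, the Hhex window was richer in these bases than 98.3% of windows. The Glis3 window, with 53.2%, was richer than 55.6%. The Pax8 window held 1 GC box, 213 bases before its start, and the Nkx2-1 window held none.

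The window of Nkx2-1, which starts inside the gene as RefSeq draws its outer limits, held 1 copy each of CTCAAG, letters bound by Nkx2-1 itself, and of CAATTA, letters bound by Hhex. Both are in capitals in the 30 bases at chr6:79735023-79735052 on the minus strand.
Nkx2-1: agcctccaCTCAAGcCAATTAaggcggact
CTCAAG was found on either strand in 13.3% of all windows and CAATTA in 7.31%. CAAGTG, a second form of the Nkx2-1 site that shares letters with the first, was in 11.7% of windows, and TAAACA, a forkhead site, was in 12.1%. Neither of these 2 was in any window of the 4 factors, and CTCAAG was also in 1 of the Glis3 windows. A match is a run of letters and was not measured as binding here.

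All 5 factors were well above background on 13 of 13 arrays. The levels below are log2 signals scaled to each array's 75th percentile, which stands at 0, and they say nothing of which factor was the more abundant, because probes differ in how they bind. The processed signal of Foxe1 lay between 18594 and 34645 on the scanner's intensity scale and that of Glis3 between 345 and 667, with a local background of at most 36. Thyroid follicular cell markers were detected on the arrays, 5 of 5, with a summed level of 7.88 to 8.12 in the KI-treated group and 8.01 to 8.38 in the control group. This sum is carried almost wholly by Tg, at 7.69 to 8.06 and 7.94 to 8.26. The next marker, Slc5a5, lay between 2.72 and 4.80, so the sum is not a measure of all 5. C cell markers (6 of 6) and parathyroid markers (4 of 4) were detected as well, and both mark neighbouring endocrine cells. The thymocyte markers Rag1, Cd8a and Cd3e were well above background on 1 array, that of KI 1, and the skeletal muscle markers were highest in control 5. In such whole-gland RNA, fewer cells of a type and less RNA per cell cannot be told apart.

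The 13 arrays came from 6 slides and 3 scan sessions, and 5 slides held both groups. Control 4 and control 6 stood apart from the other arrays. The 75th percentile of their gene spots exceeded that of their probes, each counted once, by 2.31 and 2.35, where the other arrays gave 2.00 to 2.14. The choice between these percentiles therefore shifts both control arrays against the rest, and the correlations below that lost or gained their call with it are given both ways.

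Nkx2-1, the homeobox factor that marks the thyroid bud, lung and ventral forebrain, ranged from 2.23 to 2.74 in the KI-treated group, with a median of 2.55, and from 2.24 to 2.86 in the control group, with a median of 2.56. KI 6 and control 2 were lowest and control 4 was highest, and the groups overlapped over almost their whole range. Pax8, the paired box factor that works with Nkx2-1 at the thyroglobulin gene, ranged from 2.28 to 3.42 in the KI-treated group, with a median of 2.62, and from 2.39 to 3.23 in the control group, with a median of 2.68. KI 2 and control 4, which shared a slide, were the highest animals of their groups. Foxe1, the forkhead factor needed for the bud to migrate, ranged from 3.70 to 4.04 in the KI-treated group, with a median of 3.87, and from 3.56 to 4.44 in the control group, with a median of 4.07. All 6 KI-treated animals lay below the control median of Foxe1, but control 1 and control 2 lay below all of them.

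Hhex, a homeobox factor that also acts in liver and endothelium, varied most. It ranged from 1.16 to 2.58 in the KI-treated group, with a median of 1.66, and from 1.09 to 3.03 in the control group, with a median of 2.33. The highest animal, control 2, exceeded the lowest, control 1, by 3.83-fold, although both belonged to the same group. KI 3, KI 5 and control 1 formed the low end and control 2, control 6, control 3, KI 4 and KI 6 the high end, so both groups held low and high animals. Glis3, a zinc finger factor, ranged from -1.91 to -1.47 in the KI-treated group, with a median of -1.77, and from -2.04 to -1.35 in the control group, with a median of -1.79. Control 4 held the highest Glis3 and control 5 the lowest.

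**Figure D1:**
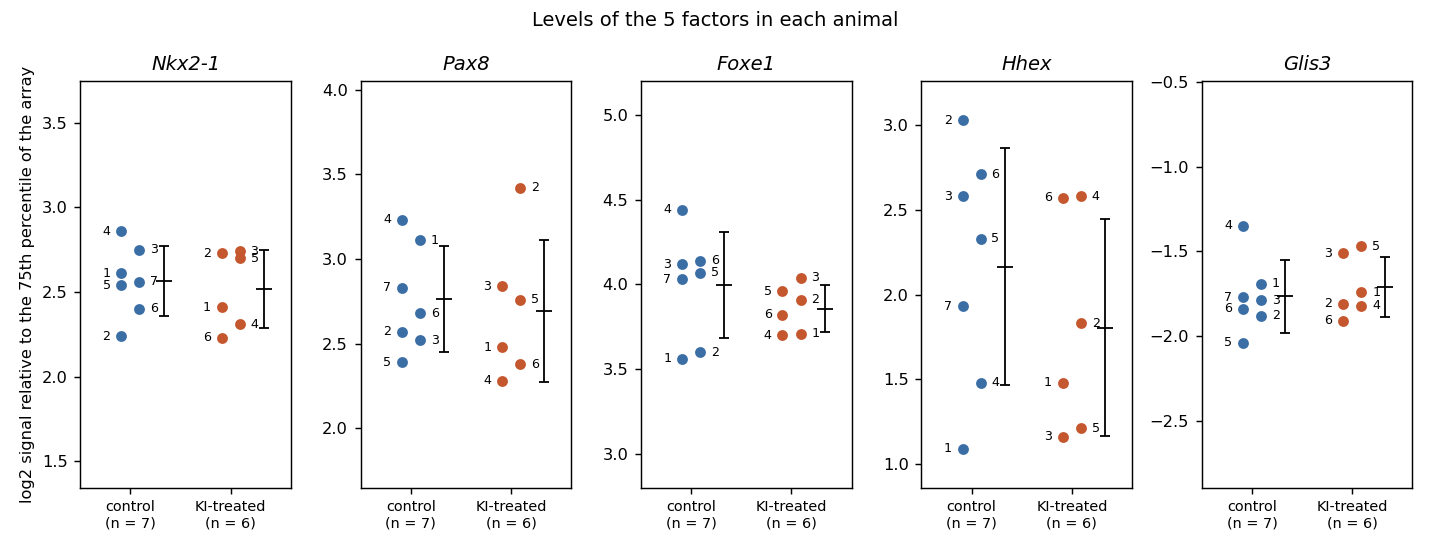
The log2 signal of each factor, scaled to each array's 75th percentile (vertical axis, of the same length in log2 units in each panel) is shown for 7 control and 6 KI-treated animals. Each point is 1 animal with its replicate number, and the bar beside the points is the mean with its SD. Hhex spreads over 1.94 log2 units, against 0.63 for Nkx2-1, and the groups overlap in every panel.

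The spread within groups was set beside that of all 17008 genes well above background on every array. The SD of Hhex was 0.67 on the log2 scale, higher than in 96.0% of these genes, whose median SD was 0.26. Pax8 followed with an SD of 0.36, higher than in 70.9% of genes. Foxe1 (SD 0.25), Nkx2-1 (SD 0.22) and Glis3 (SD 0.20) all lay below the median SD of the genes. Slides took up a large share of the spread of Pax8. Over the 12 arrays that shared a slide with another, 91.4% of the variance of Pax8 within groups lay between slides, where the median of all genes was 52.3%. KI 2 and control 4, on the same slide, held 3.42 and 3.23, and KI 5 and control 1 held 2.76 and 3.11, whereas the 6 arrays of the slides with 3 arrays each held 2.28 to 2.57. For Nkx2-1 that share was 63.1%, for Hhex 56.9%, for Foxe1 51.4% and for Glis3 46.6%.

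The comparison of the KI-treated group with the control group asks whether iodide given to the dam left a difference in the transcript levels of these factors after weaning. In limma, 0 of the 5 factors passed an adjusted p of 0.05, and 0 passed 0.05 without adjustment. Over all 25717 probes tested, 0 (0%) passed after Benjamini-Hochberg adjustment and 2890 (11.2%) passed 0.05 without it, 1757 of them over-expressed and 1133 under-expressed under KI. That split depended on the scaling, with 1469 over-expressed and 1802 under-expressed when the percentile was taken over the probes, and 1316 over-expressed and 2491 under-expressed after normexp background correction. No factor had groups that did not overlap, where 0.472% of probes did. The median change of the 5 factors was -0.07 on the log2 scale, with 1 factor above 0 and 4 below, where the median over all probes was 0.00087.

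Hhex had the largest difference of the 5, and the least precise. Its mean was 1.81 ± 0.64 (SD, n = 6) in KI-treated animals against 2.16 ± 0.70 (SD, n = 7) in controls, which is a log2 difference of -0.36 (standard error 0.34, adjusted p = 0.654 in limma). A two-sided exact permutation of the animals, with 1716 possible splits, gave p = 0.349. The 95% interval of the fold change ran from 0.469 to 1.30 and was the widest of the 5. Within the 5 slides holding both groups the difference ranged from -1.55 to 0.35, with 3 slides above 0 and 2 below.

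For Foxe1 the means were 3.86 ± 0.14 (SD, n = 6) and 3.99 ± 0.31 (SD, n = 7), a log2 difference of -0.13 (standard error 0.14, adjusted p = 0.683 in limma). The SD of the control group came largely from control 4 above and control 1 and control 2 below. Nkx2-1 differed by -0.05 (standard error 0.13, adjusted p = 0.876 in limma), with a 95% interval of 0.799- to 1.17-fold. Pax8 differed by -0.07 (standard error 0.19, adjusted p = 0.894 in limma), with an interval of 0.717- to 1.27-fold. With slide as a block, the estimate for Pax8 was again -0.07 and its standard error was 0.10 (adjusted p = 0.761 in limma). Glis3 differed by 0.06 (standard error 0.12, adjusted p = 0.852 in limma), with an interval of 0.869- to 1.24-fold. The exact permutation p of these 4 factors lay between 0.354 for Foxe1 and 0.752 for Pax8. The sign of the difference is not settled for Nkx2-1, Pax8 and Glis3, since it turned under at least 1 other scaling, weighting or set of arrays, whereas Hhex and Foxe1 stayed below 0 under all 26 alternatives with no adjusted p under 0.05. Their size was less settled. That of Hhex ran from -0.54 without control 1 to -0.21 without control 2, and that of Foxe1 from -0.21 with the percentile over the probes to -0.04 with quantile normalization, with -0.06 without control 4.

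**Figure D2:**
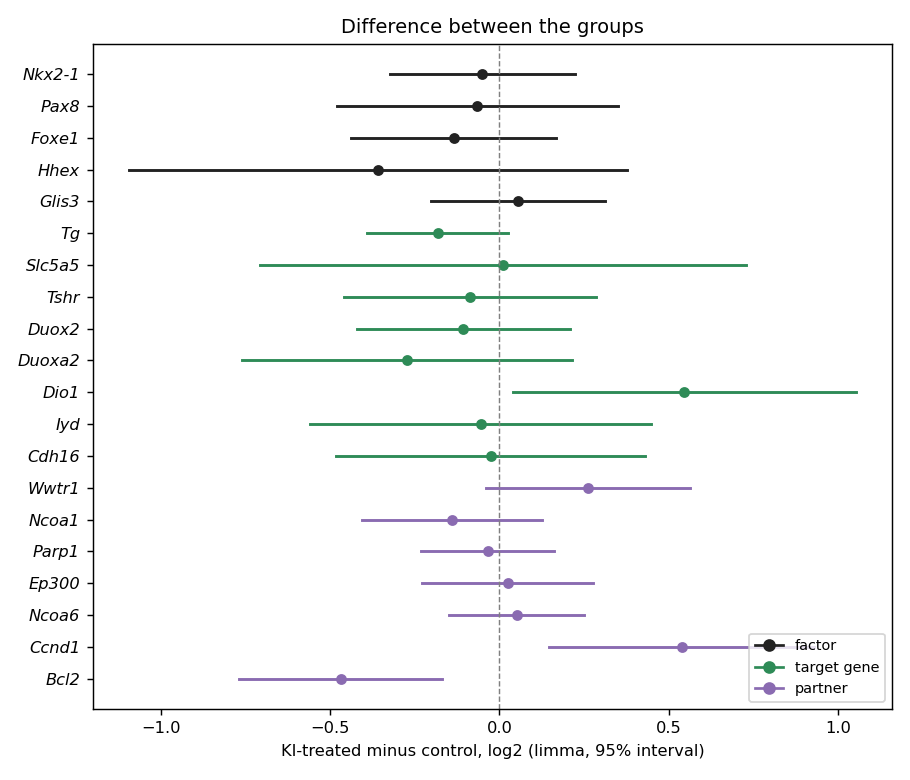
The log2 difference, KI-treated minus control (horizontal axis), is shown with its 95% interval from limma for the 5 factors, 8 target genes and 7 genes listed as partners. The interval of every factor includes 0 and that of Hhex is the widest of the 5, from -1.09 to 0.38.

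The genes these factors act on were compared in the same fit. Of 9 target genes, Slc26a4, which carries iodide across the apical membrane, was well above background on 0 arrays and was not tested. Of the other 8, 0 passed after adjustment, and 1 passed 0.05 without it. This was Dio1, a deiodinase that activates thyroid hormone, with a log2 difference of 0.55 (standard error 0.24, adjusted p = 0.440 in limma). It was lowest in control 4 (-0.26) and control 1 (0.44), and the difference of Dio1 was 0.37 without control 4 and 0.28 with array weights. Tg, thyroglobulin, has 3 probes. The brightest differed by -0.18 (standard error 0.10, adjusted p = 0.462 in limma). The others differed by -0.24 (adjusted p = 0.440 in limma), which passed 0.05 without adjustment, and by -0.05. The sign of Tg is not settled, since the brightest probe turned to 0.067 and the second to 0.084 with quantile normalization. Slc5a5, the sodium iodide symporter, differed by 0.011 (standard error 0.33, adjusted p = 0.9899 in limma), and by -0.07 with the percentile over the probes, and its control values ranged from 2.72 to 4.72.

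All 7 genes listed as partners of the factors were tested, and 0 passed after adjustment. The list also holds a cell cycle gene, Ccnd1, and a survival gene, Bcl2. Only these passed 0.05 without adjustment, where 11.2% of all probes did. Without adjustment, Ccnd1, cyclin D1, passed 0.05 with a log2 difference of 0.54 (standard error 0.18, adjusted p = 0.440 in limma) at its brighter probe and had 0.24 at the other. Bcl2, a survival gene, passed with a difference of -0.47 (standard error 0.14, adjusted p = 0.440 in limma). All 6 KI-treated animals lay below its control median. Wwtr1, the co-activator TAZ of Nkx2-1 and Pax8, differed by 0.26 (standard error 0.14, adjusted p = 0.468 in limma). Ncoa1, Parp1, Ep300 and Ncoa6, coactivators and a poly(ADP-ribose) polymerase, differed by -0.14 to 0.05. Among 10 relatives of the factors, Nkx2-3, Nkx2-4, Nkx2-5 and Foxe3 were well above background on 0 arrays. Of the 6 relatives tested, 0 passed after adjustment, and Pax5, a B cell factor, passed 0.05 without it with a difference of -0.38 (standard error 0.13, adjusted p = 0.440 in limma).

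Whether the factors varied together was asked across animals. Pearson's r was taken over the 13 animals after subtraction of the group means, for all 10 pairs, with 100000 permutations within groups and adjustment over the 10 pairs. Every value of an array has the same percentile subtracted, so an error in that percentile moves all 5 factors of an animal together. Of the 10 pairs, 7 passed 0.05 before adjustment and 6 after it. Many genes ran together in these animals, and the share of all genes with as extreme an r of the same sign, given below for each factor of a pair, ran from 0.935% to 15.5% over the 7. The 6 were Nkx2-1 with Pax8, Foxe1 and Glis3, all positive, and Hhex with Nkx2-1, Pax8 and Glis3, all negative. The count of 7 was 5 with the percentile over the probes, when all 3 pairs of Hhex missed 0.05 and Foxe1 with Glis3 passed it. It fell to 2 without control 4 and to 2 with slide means subtracted. It was also 2 without control 4 and control 6, when Hhex with Glis3 and Nkx2-1 with Foxe1 still passed 0.05, and Nkx2-1 with Hhex stood at -0.64 (permutation p = 0.0502). With slide means subtracted, the permutations stayed within groups but moved values between slides. That subtraction leaves fewer free values than 13 animals give. Its p-values here and below are therefore too small, and its count of 2 is a description only.

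Hhex and Glis3 had the strongest correlation with this scaling, with r = -0.73 (permutation p = 0.00814, adjusted p = 0.0368) and Spearman's rho = -0.81 (permutation p = 0.00263, adjusted p = 0.0263). Without control 1 and control 2, the animals farthest from the median of Hhex, r was -0.79. Only 1.95% of the 17007 other genes had as low an r with Hhex as Glis3 had, and 1.05% had as low an r with Glis3 as Hhex had. KI 3 and KI 5 were low in Hhex and high in Glis3, and control 2 and KI 6 the reverse. The relation stood at -0.415 when the percentile was taken over the probes (permutation p = 0.194) and at -0.51 with slide means subtracted (permutation p = 0.0843).

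Nkx2-1 and Hhex had r = -0.70 (permutation p = 0.0147, adjusted p = 0.0368) and rho = -0.76 (p = 0.00619, adjusted p = 0.0304). Without KI 6 and control 2, the animals farthest from the median of Nkx2-1, r was -0.54 (permutation p = 0.105), so the test rested in part on these animals. Of all genes, 0.935% had as low an r with Nkx2-1 as Hhex had, and 2.60% had as low an r with Hhex as Nkx2-1 had. With the percentile over the probes r was -0.50 (permutation p = 0.102). In the KI-treated group alone r was -0.80 over 6 animals, and in the control group alone it was -0.63 over 7.

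Nkx2-1 and Glis3 had r = 0.70 (permutation p = 0.0147, adjusted p = 0.0368) and rho = 0.74 (p = 0.00912, adjusted p = 0.0304). Leaving out KI 6 and control 2 gave r = 0.65, and leaving out control 4 gave r = 0.60 (permutation p = 0.0750). Nkx2-1 and Pax8 had r = 0.68 (permutation p = 0.0141, adjusted p = 0.0368) and rho = 0.70 (p = 0.0158, adjusted p = 0.0307), with r = 0.66 without KI 6 and control 2. With slide means subtracted it was 0.36 (permutation p = 0.249), and without control 4 it was 0.61 (permutation p = 0.0517). An r with Nkx2-1 at least as high as that of Pax8 was found in 4.36% of all genes, and at least as high as that of Glis3 in 3.81%. Seen from the other side, 8.52% of genes had as high an r with Pax8 as Nkx2-1 had, and 2.03% with Glis3. With the deposited log2 values Nkx2-1 missed 0.05 with Glis3, at 0.42, and with Pax8, at 0.52. Nkx2-1 and Foxe1 had r = 0.61 (permutation p = 0.0245, adjusted p = 0.0434) and rho = 0.64 (p = 0.0236, adjusted p = 0.0337), and it missed 0.05 without KI 6 and control 2, at 0.53 (permutation p = 0.0991). Without control 2, and likewise without control 4, it was 0.49, and with quantile normalization it was 0.44 (permutation p = 0.113). For Nkx2-1 and Foxe1 the share of genes with as high an r was 7.80% seen from Nkx2-1 and 12.7% seen from Foxe1.

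Pax8 and Hhex had r = -0.63 (permutation p = 0.0260, adjusted p = 0.0434) and rho = -0.70 (p = 0.0132, adjusted p = 0.0307). Without KI 2 and control 4 it was -0.85 (permutation p = 0.00430), and with slide means subtracted it was -0.32 (permutation p = 0.316). With the percentile over the probes it was -0.496 (permutation p = 0.102). As low an r was found in 4.04% of genes with Pax8 and in 5.96% with Hhex. The r of Pax8 and Hhex missed 0.05 without KI 4, KI 6, control 1 or control 4 in turn, at -0.57 to -0.59. Pax8 and Glis3 had r = 0.56 (permutation p = 0.0486, adjusted p = 0.0694) and rho = 0.68 (p = 0.0184, adjusted p = 0.0307). That r turned to -0.19 with slide means subtracted (permutation p = 0.546), and without KI 2 and control 4 it was 0.86. It missed 0.05 with any 1 array left out other than KI 2 and KI 5. As high an r was found in 15.5% of genes with Pax8 and in 8.95% with Glis3. Slides hold 1 to 3 arrays, so no correlation could be taken within a slide, and no session held 6 animals.

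Besides its relation with Nkx2-1, Foxe1 had no pair past 0.05 with the scaling over gene spots. Its r was 0.46 with Glis3 (permutation p = 0.157, adjusted p = 0.197), 0.25 with Pax8 (permutation p = 0.387, adjusted p = 0.430) and -0.17 with Hhex (permutation p = 0.609, adjusted p = 0.609). The matching rho were 0.45, 0.29 and -0.29 (permutation p = 0.150, 0.338 and 0.377). Without control 1 and control 4, the animals farthest from the median of Foxe1, the r were 0.39, 0.36 and -0.54. Each of these 2 arrays alone moved the values of Foxe1 in opposite directions. Without control 4 its r was 0.107 with Glis3, 0.006 with Pax8 and 0.026 with Hhex, and without control 1 it was 0.647, 0.551 and -0.672, the last with permutation p = 0.0163. With the percentile over the probes Foxe1 had r = 0.68 with Glis3 (permutation p = 0.0269), 0.414 with Pax8 and 0.025 with Hhex. Control 1 held the lowest Foxe1 of all animals together with high Pax8 and the lowest Hhex. In the 6 KI-treated animals, Foxe1 had r = 0.64 with Pax8 and r = -0.64 with Hhex, against 0.11 and -0.03 in the 7 control animals, a difference that was not tested.

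**Figure D3:**
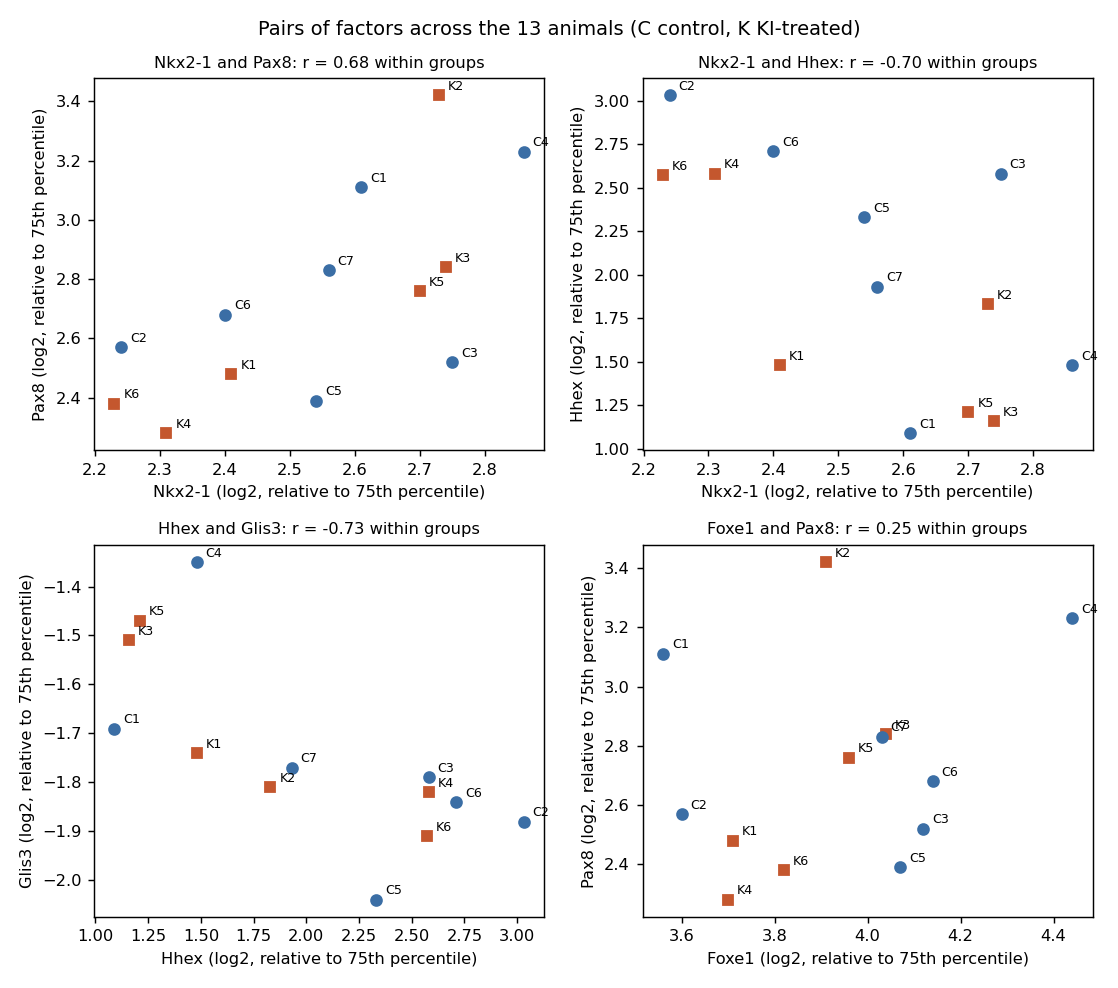
Each panel plots 1 factor against another in the 13 animals, as log2 signal scaled to each array's 75th percentile, with control animals as circles (C) and KI-treated animals as squares (K), each with its replicate number. Nkx2-1 rises with Pax8, Hhex falls with Nkx2-1, Glis3 falls with Hhex, and Foxe1 shows little relation with Pax8 (r = 0.25).

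**Figure D4:**
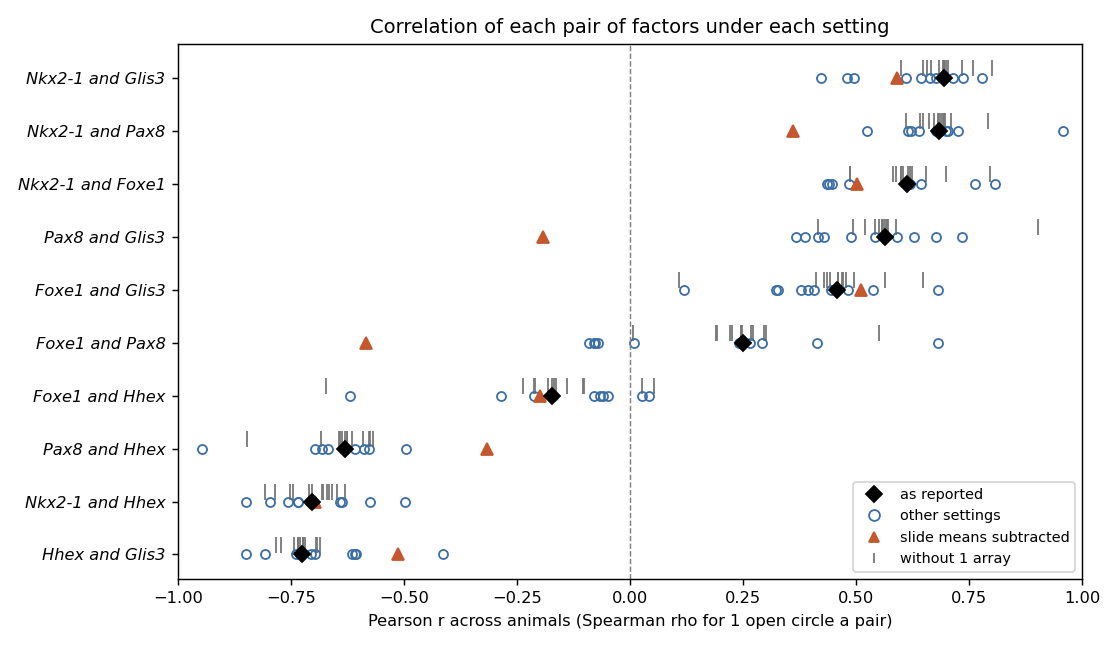
For each of the 10 pairs, the horizontal axis gives Pearson's r across animals as reported (diamond), with slide means subtracted (triangle), under other settings (open circles, 1 of them Spearman's rho) and without 1 array (ticks). The pairs of Hhex with Nkx2-1, Pax8 and Glis3 lie below 0 at every mark, whereas Foxe1 and Pax8 spread from -0.585 to 0.68.

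The factors were also set beside 8 of their target genes, which gave 40 relations. Of these, 6 had an r beyond 0.6 in size, 6 had a permutation p under 0.05 and 0 passed 0.05 after adjustment over the 40. These sets differ, since Foxe1 with Cdh16 was only in the first. Nkx2-1 with Dio1 was only in the second, with r = -0.57 (permutation p = 0.0400, adjusted p = 0.267). The 6 beyond 0.6 make up 15% of the relations, where a mean of 16.1% of all genes had an r beyond 0.6 with a factor, from 9.64% for Hhex to 28.8% for Foxe1. With the scaling over gene spots, the targets were thus no more often beyond 0.6 than genes at large. With the percentile over the probes 12 of the 40 were beyond 0.6, and the share of all genes was not computed for that scaling. Dio1 stood in 3 of the 6 with an r beyond 0.6. It had r = -0.79 with Glis3 (permutation p = 0.00179, adjusted p = 0.0508), rho = -0.73 (p = 0.00697, adjusted p = 0.0929). With Pax8 it had r = -0.68 (permutation p = 0.00254, adjusted p = 0.0508), rho = -0.74 (p = 0.00155, adjusted p = 0.0620), and with Hhex r = 0.68 (permutation p = 0.0122, adjusted p = 0.135), rho = 0.76 (p = 0.00449, adjusted p = 0.0898). Leaving out the 2 animals farthest from the median of the factor gave -0.55 for Glis3, -0.82 for Pax8 and 0.60 for Hhex. Dio1 thus lay on the side of Hhex, high in KI 4 and low in control 1 and control 4.

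Foxe1 and Iyd, the deiodinase that recovers iodide, had r = -0.69 (permutation p = 0.0332, adjusted p = 0.266) and rho = -0.57 (p = 0.0703, adjusted p = 0.402), with -0.38 without control 4 and control 6 and -0.44 without control 1 and control 4. Foxe1 and Cdh16, a cadherin of follicular cells, had r = 0.61 (permutation p = 0.0772, adjusted p = 0.300) and rho = 0.65 (p = 0.0304, adjusted p = 0.243), with 0.30 and 0.26 without these same pairs of animals. Both relations were thus weaker without these control animals, whereas with the percentile over the probes they were -0.73 and 0.76. Pax8 and Duox2, the oxidase that makes hydrogen peroxide for hormone synthesis, had r = 0.72 (permutation p = 0.0135, adjusted p = 0.135) and rho = 0.71 (p = 0.0117, adjusted p = 0.117), with 0.36 without KI 2 and control 4. With the scaling over gene spots Nkx2-1 had an r beyond 0.6 with 0 of the 8 targets. Of all genes, 8.42% exceeded 0.6 with Nkx2-1 and 2.68% lay below -0.6. With the percentile over the probes Nkx2-1 had r = -0.69 with Iyd and -0.67 with Dio1. That percentile also took Foxe1 with Slc5a5 to 0.62, and Glis3 to -0.76 with Iyd, 0.62 with Cdh16 and 0.60 with Tg. Tg itself had r between -0.14 (Hhex) and 0.46 (Pax8) with the 5 factors. These limits were 0.07 (Hhex) and 0.60 (Glis3) with the percentile over the probes.

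**Figure D5:**
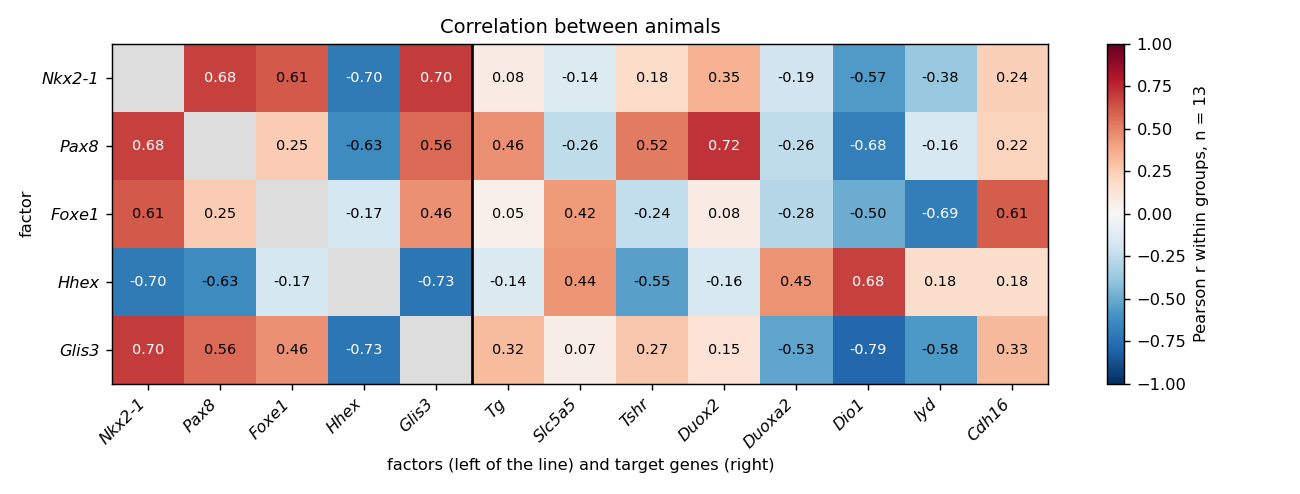
Pearson's r over the 13 animals within groups is shown by colour and number for each factor (rows) with the other factors (left of the line) and with 8 target genes (right), where grey marks a factor with itself. The row of Hhex is opposite in sign to the rows of Nkx2-1, Pax8 and Glis3 for the factors and for Dio1.

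Marker lists of other cell types were set beside the factors as summed levels, which gave 50 relations with the smallest adjusted p at 0.337. The endothelial list (6 of 6 markers detected, 4.41 to 4.76 in the KI-treated group and 4.25 to 4.995 in the control group) had r = 0.72 with Foxe1 (permutation p = 0.0225, rho = 0.62, permutation p = 0.0412). The same list had r = 0.57 with Pax8 (permutation p = 0.0363), 0.55 with Glis3, 0.52 with Nkx2-1 and -0.31 with Hhex. Its sum is carried by the bright Kdr and Pecam1, which were highest in control 4, whereas Tie1 was lowest in control 4 (-3.83) and control 6 (-3.57), and Cdh5 was among its lowest there (-3.96 and -3.95), so the members did not move as one. The C cell list (5.34 to 6.10 and 4.49 to 6.05), in which Calca, calcitonin, was detected on all arrays, had r = -0.69 with Foxe1 (permutation p = 0.0352, rho = -0.68, permutation p = 0.0206). This list had r = -0.57 with Nkx2-1 (permutation p = 0.0429), -0.53 with Pax8, -0.53 with Glis3 and 0.32 with Hhex. Its sum is carried largely by the bright Calca and Chga. Calca was lowest in control 4 (3.41) and control 6 (3.76), where Scg3 was low as well (-2.31 and -2.62). Ret, however, was highest in control 4 (-2.36). Chga was lowest in control 2 (2.13), where Calca was highest (5.83), so these members did not move as one either. The respiratory list, in which Scgb1a1 and Foxj1 were detected and Sftpc and Sftpb were not, had r = 0.70 with Pax8 (permutation p = 0.00675, rho = 0.64, permutation p = 0.0238), over sums of -3.06 to -2.66 and -2.81 to -2.23. The parathyroid list had rho = 0.66 with Glis3, 0.65 with Pax8 and -0.64 with Hhex (permutation p = 0.0231, 0.0201 and 0.0309). The matching r were 0.50, 0.48 and -0.51 (permutation p = 0.0996, 0.117 and 0.0932), with 0.40 for Nkx2-1 and 0.47 for Foxe1. The part of all these cells in the relations of the factors was not tested. Array brightness, the 75th percentile itself, had r between -0.38 and 0.09 with the 5 factors (smallest adjusted p = 0.639 by permutation). Without the 2 arrays farthest from the median brightness, r was -0.59 for Glis3 and -0.42 for Pax8. It then lay between -0.05 and 0.11 for Nkx2-1, Foxe1 and Hhex. This percentile is also the value subtracted from each level, so the levels and the brightness are not independent measures.

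The genes most like each factor between animals were taken as the 5 with the highest r over the 13 animals among 17007 genes, and they are the extremes of many comparisons. Hhex was closest to Btbd3 (r = 0.97), Irs2 (0.94), an adaptor of the insulin receptor, Bhlha15 (0.92), a transcription factor of secretory cells, Nxt1 (0.91) and Tpst2 (0.91). Foxe1 was closest to Zmynd11 (r = 0.97), Ercc3 (0.96), a helicase of transcription and repair, Llph (0.95), Arfrp1 (0.95) and an Ensembl transcript without a gene symbol (0.95). Pax8 was closest to Cst3 (r = 0.96), cystatin C, Rpain (0.95), RGD1561481 (0.94), Ppap2a (0.94) and Cd320 (0.94). Nkx2-1 was closest to an Ensembl transcript without a symbol (r = 0.94), RGD1566314 (0.93), Irak2 (0.91), a kinase of interleukin signalling, Fam84a (0.91) and Mtif2 (0.91). Glis3 was closest to Cdk17 (r = 0.93), Zfp36l1 (0.89), an mRNA decay factor, Elmsan1 (0.89), LOC100910596 (0.87) and Zfp53 (0.87). None of the 5 factors was among the 5 genes closest to another.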

How the data were processed

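Thyroid RNA of 13 rats was hybridised in Cy3 to one-colour arrays. The scanner output the authors deposited holds background-subtracted intensity values by spot from Agilent Feature Extraction, version 10.7.3.1 per the file headers, with flags for spots well above background, saturated or outlying. The authors also deposited log2 values of the same arrays, whose normalization is not given in the sources used here, and these served as an alternative. Low intensities depend on the background subtraction, so probes were filtered on the flag. Between 34840 and 41050 of 58717 gene spots per array carried it, 0 were saturated, and 0 columns of other samples were left aside. The number of arrays limits the precision.

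Groups came from the sample labels. Log2 of the processed intensity minus the array's 75th percentile over its gene spots was computed without outlier-flagged spots, and the spots of a probe were averaged. Probes well above background on 6 or more arrays, 25717 in number, were tested with limma 3.58.1 in R 4.3.3 (lmFit, eBayes, Benjamini-Hochberg, threshold 0.05), and single factors also with an exact permutation test. On simulated arrays with 200 of 25650 probes changed, limma recovered 5% of log2 changes of 0.5, 65% of changes of 1 and 94% of changes of 2. The simulated noise was independent between probes and held no slide or session effect, unlike these arrays. The largest difference of a factor, -0.36 for Hhex, was smaller in size than the smallest change simulated. Correlations were computed in Python 3.11.15 with numpy 2.4.6 and scipy 1.17.1, and the search for like genes was also tested on simulated data.

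The genes named were the factors, fixed lists of targets, partners and relatives, and the 5 genes most like each factor, with the brightest probe standing for a gene. One target gene is not reported here and was left out of the lists, counts and adjusted values given for them. Factors and lists were chosen with earlier results of these data known. Alternatives were quantile normalization, normexp (offset 50) with either scaling, the deposited log2 values, other filters, slide, scan session or replicate number as a block, array weights, trended variances, a t-test without moderation, and each array left out. The percentile over probes, and leaving out control 4 and control 6, were chosen after seeing the data.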

Additional observations from a re-analysis of the deposited data

Results flagged for a closer look

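Each factor and each detected target gene was looked at in both groups for a single animal far from the others, which gave 26 checks over 13 genes. None of the 5 factors had such an animal in either group. In the control group, the Tshr level of control 1 was 1.30, and its gap to the nearest animal was 0.593 of the range of the group. The Duox2 level of control 5 was -1.12, with a gap of 0.639 of the range. Chance alone marks about 1 in 20 groups, so 2 of 26 is not a pattern.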

How the results depend on the processing

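All 26 alternatives left 0 of the 5 factors past the threshold in limma. Over all probes the count was 7 with array weights, all under-expressed under KI, and 0 to 1 with 1 array left out, the 1 being without control 2. A t-test run without moderation on the same values gave 0 probes past 0.05 after Benjamini-Hochberg adjustment and 2647 before it. The paper, by contrast, reports thyroid genes that differed by t-test at a Q-value under 0.05, with Bcl2 among them. Its exact processing was not repeated here, and the reason for the difference was not tested. The difference of Nkx2-1 turned to 0.01 with quantile normalization, 0.0031 with normexp and quantile normalization and 0.0065 with the deposited log2 values, and ran from -0.10 to 0.0072 with 1 array left out (above 0 without KI 6). That of Pax8 turned to 0.0237 with array weights and ran from -0.21 to 0.0179 with 1 array left out (0.0179 without KI 4, 0.0134 without control 4). That of Glis3 turned to -0.0232 with the percentile over probes. Pairs of factors past 0.05 before adjustment numbered 4 of 10 with quantile normalization, 4 with normexp and quantile normalization, 3 with the deposited values, 2 with slide means subtracted, 2 without control 4 and control 6, and 2 to 7 with 1 array left out. They numbered 7 with Spearman's rho, 7 with normexp and the 75th percentile, and 6 with group means not subtracted. With session means subtracted they numbered 5, and with replicate means subtracted 9. Like that of slide means, these last 2 subtractions leave fewer free values, so their counts are descriptions only. The r of Foxe1 and Pax8 turned to -0.091 with quantile normalization, -0.081 with normexp and quantile normalization, -0.071 with the deposited values, -0.585 with slide means subtracted and -0.079 with session means subtracted. That of Foxe1 and Hhex turned to 0.025 with the percentile over probes and 0.042 with the deposited values, and ran from -0.67 (without control 1) to 0.052 (without control 2) with 1 array left out, at 0.026 without control 4. That of Pax8 and Glis3 turned to -0.19 with slide means subtracted. The number of relations with target genes beyond 0.6 was 12 against 6 with the percentile over probes, and 4 to 8 with 1 array left out. Replicate numbers did not pair the animals (correlation of deviations -0.22 to 0.06). With the replicate block, 0 probes and 0 factors passed, the difference of Hhex was -0.40, and r was 0.68 for Foxe1 and Pax8 and -0.62 for Foxe1 and Hhex. The cause was not tested for any of these changes.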
